A study of Mus musculus with 52 samples.

Results

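The gastrocnemius, a fast hind leg muscle, of unloaded mice that drank leucine was set against that of ambulatory mice that drank plain water. The 8 libraries were chosen by the group named in their titles, out of 52 libraries in 13 groups of 4, and the comparison was described across all 16668 genes that passed a filter on low counts. All mice were C57BL/6 males of 22 to 24 mo. Mice of the first group, called HU_L here, underwent hindlimb unloading, in which the hind legs bear no weight, and had leucine in their drinking water. Mice of the control group, called AMB_W, walked freely as a baseline control. Both the load on the muscle and the drink differed between these groups, and their parts in a difference cannot be told apart in this comparison. The series also holds unloaded groups on water (HU_W), on metformin (HU_M) and on metformin with leucine (HU_ML), and groups reloaded after unloading. The leucine dose and the length of the unloading are not given in the sources used here. Nothing in these sources states that the libraries of a group came from separate mice, so p-values measure the spread between libraries. In the main edgeR fit that spread was pooled within all 13 groups, 52 libraries, and not taken from these 8 libraries alone.

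Muscle that bears no weight loses mass because protein breakdown outpaces protein synthesis. Circulating glucocorticoids and FoxO transcription factors raise ubiquitin ligases that mark muscle proteins for the proteasome, and the kinase complex mTORC1, which leucine activates through amino acid sensors, drives translation. Aged muscle responds less to leucine than young muscle, which is a reason to study the amino acid in old animals.

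Total RNA depleted of ribosomal RNA was sequenced, and levels are given as CPM, the count of a gene relative to the total of its library after scaling by TMM factors. Libraries held 17986148 to 21053365 counts in AMB_W and 15605044 to 23041657 counts in HU_L. Myh4, the myosin heavy chain of fast fibres, averaged 57900 ± 3430 CPM in AMB_W and 55800 ± 5780 in HU_L (SD, n = 4 each), as the labelled muscle should hold. HU_L 5 stood apart: Alb, a liver transcript, was at 69.64 CPM there, against at most 0.398 CPM in the other HU_L libraries and 4.707 CPM in AMB_W. The gene n-R5-8s1, which encodes 5.8S ribosomal RNA, reached 32.83 CPM in HU_L 5 and 14.32 to 16.09 CPM in the other HU_L libraries, against 7.643 to 14.47 CPM in AMB_W. Mitochondrially encoded genes took 24.07% of the counts of HU_L 5 and 14.43% to 18.66% in the other HU_L libraries, against 14.92% to 17.92% in AMB_W. The counts of changed genes are therefore also given without HU_L 5.

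Of the 16668 genes tested, 624 (3.74%) changed between HU_L and AMB_W by edgeR's quasi-likelihood test at an adjusted p under 0.05. Higher in HU_L were 423 genes (2.54%) and lower were 201 (1.21%). Changes of at least 2-fold made up 190 of the higher and 72 of the lower genes, and the median fold of a changed gene was 1.82. The median log2 fold change of all genes was -0.008. In 576 of the 624 the libraries of both groups did not overlap in CPM, and 13.2% of all genes tested showed no overlap. Calls and overlap were read from the same libraries, so the overlap is a description and no separate evidence for the calls. DESeq2 called 761 genes (4.57%). The edgeR count was 421 without HU_L 5, 413 without HU_L 2 and 392 without AMB_W 5, the lowest. In all, 263 genes, 212 higher and 51 lower, were called with all 8 libraries and also without each of them in turn. For many of the lists and genes below, calls that were lost without a single library are therefore named.

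**Figure D1:**
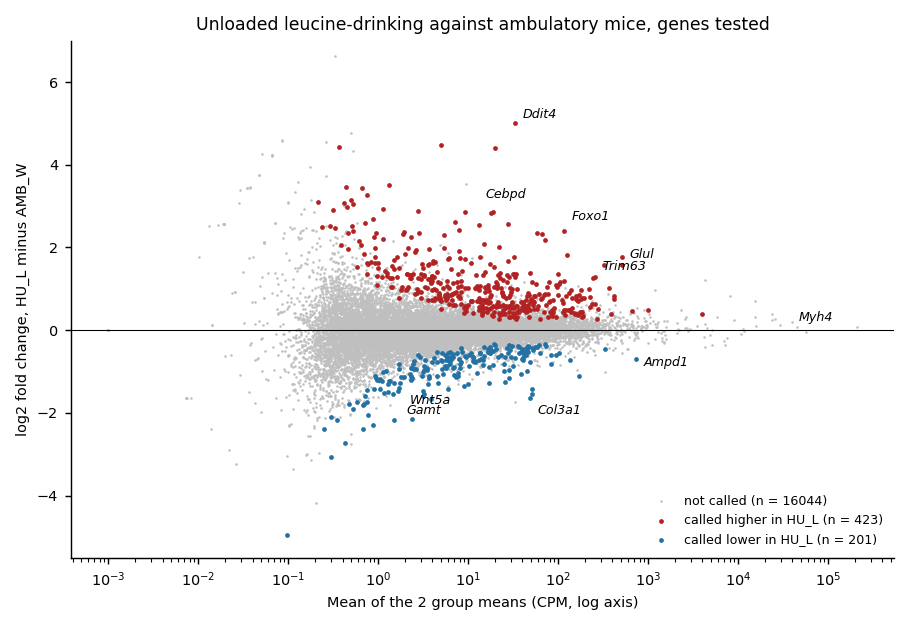
Log2 fold change of each gene tested, HU_L minus AMB_W (vertical axis), against the mean of both group means in CPM (horizontal log axis). Red points are the 423 genes called higher in HU_L, blue points the 201 called lower and grey points the others; Ddit4 has a log2 fold change of 5.00, and the abundant Myh4 lies near 0.

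Genes known to respond to glucocorticoids were the list with the most changed members. Of 23 tested, 18 rose and 0 fell, and the median log2 fold change was 1.05 against -0.008 over all genes tested. Without each of the 8 libraries in turn 15 to 18 rose, 17 of them without HU_L 5. Ddit4 (also REDD1), an inhibitor of mTORC1, lies on chromosome 10 at 59949669 to 59951834 of GRCm38. Its level was 1.25, 1.65, 2.86 and 2.31 CPM in AMB_W 2, 3, 4 and 5, and 33.6, 88.5, 87.8 and 46.7 CPM in HU_L 1, 2, 3 and 5. Every HU_L library lay far above every AMB_W library. The rise was 31.9-fold (log2 fold change 5.00 ± 0.52 SE, edgeR adjusted p = 1.41e-08).

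Fkbp5, a co-chaperone that dampens the glucocorticoid receptor (chromosome 17, 28399094 to 28517527), had 20.4 to 31.8 CPM in AMB_W and 96.2, 132, 125 and 118 CPM in HU_L. It rose 4.53-fold (edgeR adjusted p = 5.64e-07), and the groups did not overlap. Cebpd, an acute-phase regulator of the C/EBP family, rose 7.22-fold, from 4.58 ± 0.471 to 33.1 ± 14.4 CPM (n = 4, edgeR adjusted p = 7.44e-06). HU_L 1 and 5, with 19.4 and 21.9 CPM, lay below HU_L 2 and 3, with 46.4 and 44.8 CPM. Exons of Cebpd overlap Spidr on the opposite strand, and its counts are uncertain to that extent.

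The metallothioneins Mt1 and Mt2, which bind zinc, rose with them. Mt1 had 5.83 to 11.5 CPM in AMB_W and 23.6, 43.6, 59.8 and 61.1 CPM in HU_L, a 5.92-fold rise (edgeR adjusted p = 9.23e-05). Mt2 rose 7.32-fold (edgeR adjusted p = 0.00215), with 4.3 CPM in HU_L 1 against 15.3 to 25.4 CPM in the other HU_L libraries and at most 2.76 CPM in AMB_W. HU_L 1 was thus the lowest HU_L library for Ddit4, Cebpd, Mt1, Mt2 and Fkbp5.

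Glul, which makes glutamine from glutamate and ammonia, rose 2.96-fold, from 260 ± 26.2 to 770 ± 138 CPM (edgeR adjusted p = 9.23e-05), although its exons overlap Teddm2 on the opposite strand. Errfi1, an inhibitor of the EGF receptor, rose 2.59-fold, and Sgk1, a kinase induced by glucocorticoids and salt, rose 2.01-fold. Tsc22d3 (GILZ), a mediator of anti-inflammatory glucocorticoid action, rose 1.73-fold, and Klf15, a transcription factor of amino acid breakdown, 1.78-fold (edgeR adjusted p = 0.00822, and 0.0583 without AMB_W 2). The receptor itself, Nr3c1, rose 1.3-fold (edgeR adjusted p = 0.0427), a call lost without any library but HU_L 1 (highest adjusted p = 0.22). The 5 members that did not pass were Pdk4, Dusp1, Angptl4, Hsd11b1 and Tat. Pdk4, which shuts pyruvate out of the mitochondria, had 766 to 843 CPM in AMB_W and 1410 to 1710 CPM in HU_L without overlap. Its log2 fold change was 0.98 ± 0.41 SE (edgeR adjusted p = 0.214). That SE uses the spread in all 13 groups of the fit and not that of these 2 groups alone. Plasma glucocorticoids were not measured in these files.

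Promoters were read from RefSeq (GRCm38.p6), from 250 bases before to 50 bases after each annotated start, for 11046 of 16662 gene symbols tested. The palindrome bound by the glucocorticoid receptor was searched as GNACA and TGTNC with 3 bases of any kind between them, which reads the same on both strands. It stood in 12 of 389 promoters (3.08%) of genes called higher, in 0 of 174 promoters of genes called lower and in 53 of 14159 promoters (0.374%) of all genes tested. In the calls of limma voom, which calls more genes, the share was 1.54%, and with only these 8 libraries in the fit it was 1.69%. The 12 promoters belong to 11 genes, because Fam107a has 2 start sites a few bases apart that share 1 match. Of the 50 genes tested with a match, 11 (22%) were called higher and 0 lower, against 2.54% and 1.21% of all genes tested. At such low shares the counts of 0 among lower genes tell nothing. Of the glucocorticoid-responsive genes called higher, 15 had promoters read, and the palindrome stood in 3 of their 24 promoters (12.5%), in 3 genes. A match is a stretch of letters and not a shown binding site. In genes called higher the FoxO letters GTAAACA stood in 2.83% of promoters against 2.66% of all, and the cAMP element TGACGTCA in 2.31% against 2.8%. For the E-box CACGTG these shares were 10.3% against 9.46%, and for the AP-1 letters TGACTCA 4.37% against 3.84%. In genes called lower the FoxO letters stood in 2.3% of promoters, the cAMP element in 0.575%, the E-box in 14.9% and the AP-1 letters in 5.75%. All were searched on both strands, and the letters of different motifs did not exclude each other.

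The promoters of 4 genes known for muscle wasting or the glucocorticoid response are shown to let the match be seen in its surroundings, 5′ to 3′ on the strand of the gene, with the palindrome and any FoxO letters in capitals. Ddit4 and Fkbp5 have no palindrome in the promoters read, and neither have the other promoters of Sgk1. In Trim63 the FoxO letters, here as TGTTTAC, follow the palindrome after 1 base.
Trim63, chr4:134314870-134315169, plus strand: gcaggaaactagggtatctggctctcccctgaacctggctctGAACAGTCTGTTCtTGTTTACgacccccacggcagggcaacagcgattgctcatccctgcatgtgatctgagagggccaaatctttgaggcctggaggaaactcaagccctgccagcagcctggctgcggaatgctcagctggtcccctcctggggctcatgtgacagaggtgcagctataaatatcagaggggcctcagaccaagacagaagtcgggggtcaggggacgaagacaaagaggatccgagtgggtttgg
Sgk1, chr10:21993640-21993939, plus strand: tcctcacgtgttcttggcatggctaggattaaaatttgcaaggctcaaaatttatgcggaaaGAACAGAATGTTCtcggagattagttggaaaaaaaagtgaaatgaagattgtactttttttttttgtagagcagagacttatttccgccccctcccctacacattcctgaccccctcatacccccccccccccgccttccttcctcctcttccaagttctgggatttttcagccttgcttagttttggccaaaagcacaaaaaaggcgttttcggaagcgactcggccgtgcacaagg
Mt1, chr8:94178839-94179138, plus strand: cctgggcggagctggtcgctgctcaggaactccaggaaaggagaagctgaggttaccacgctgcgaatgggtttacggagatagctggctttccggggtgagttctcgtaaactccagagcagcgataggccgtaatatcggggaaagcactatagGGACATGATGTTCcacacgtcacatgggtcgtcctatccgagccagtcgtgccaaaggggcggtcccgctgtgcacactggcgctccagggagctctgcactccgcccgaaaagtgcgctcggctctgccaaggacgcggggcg
Map3k6, chr4:133240568-133240867, plus strand: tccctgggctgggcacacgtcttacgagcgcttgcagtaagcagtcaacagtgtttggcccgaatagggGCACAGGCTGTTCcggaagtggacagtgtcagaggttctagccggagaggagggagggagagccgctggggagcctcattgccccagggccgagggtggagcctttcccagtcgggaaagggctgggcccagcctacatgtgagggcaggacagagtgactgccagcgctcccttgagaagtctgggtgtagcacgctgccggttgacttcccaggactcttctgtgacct

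The other genes called higher with the palindrome are shown with 10 bases on either side of it, and the palindrome is in capitals.
Slc10a6, chr5:103629544-103629576, minus strand: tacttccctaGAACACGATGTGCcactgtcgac
Fam107a, chr14:8309875-8309907, minus strand: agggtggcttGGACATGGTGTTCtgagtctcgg
Car14, chr3:95904888-95904920, minus strand: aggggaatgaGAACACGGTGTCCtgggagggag
Kcna5, chr6:126535592-126535624, minus strand: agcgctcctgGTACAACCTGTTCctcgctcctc
Tinagl1, chr4:130174927-130174959, minus strand: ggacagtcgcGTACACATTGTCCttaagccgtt
Nctc1, chr7:142558718-142558750, minus strand: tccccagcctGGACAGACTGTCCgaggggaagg
Map7d2, chrX:159459125-159459157, plus strand: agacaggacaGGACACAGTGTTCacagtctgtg

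These 11 genes differ in what they do and in level. Slc10a6, a carrier of sulfated steroids, rose 4.77-fold, from 0.795 ± 0.173 to 3.82 ± 0.485 CPM (n = 4, edgeR adjusted p = 1.43e-05). Fam107a, an actin-binding protein induced by stress, rose 3.95-fold, from 2.15 ± 0.633 to 8.52 ± 1.39 CPM (edgeR adjusted p = 1.54e-05). Map3k6, a stress-activated kinase, rose 3.31-fold, from 2.83 to 5.38 CPM in AMB_W to 13.2 to 15 CPM in HU_L. Car14, a carbonic anhydrase, and Kcna5, a potassium channel, rose 2.14-fold and 2.23-fold. Tinagl1 rose 1.9-fold (edgeR adjusted p = 0.0133, and 0.0761 without AMB_W 5). Map7d2 had at most 0.156 CPM in AMB_W and 0.0489 to 0.966 CPM in HU_L, so its 5.59-fold change rests on few counts; its call was lost without any library but HU_L 1 (highest adjusted p = 0.186).

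Ubiquitin ligases and FoxO factors gave 4 higher and 0 lower of 16 tested, with a median log2 fold change of 0.13; without 1 library 2 or 3 rose. Foxo1 (chromosome 3, 52268336 to 52353221), a transcription factor of muscle wasting, had 33.4, 39.2, 39.6 and 36.6 CPM in AMB_W and 159, 183, 205 and 239 CPM in HU_L. No library of either group came near the other group. Foxo1 rose 5.28-fold (log2 fold change 2.40 ± 0.21 SE, edgeR adjusted p = 1.49e-10), the smallest adjusted p of the genes named here; exons of Gm20402 overlap it on the opposite strand. Foxo3 rose 1.38-fold (edgeR adjusted p = 0.0321), a call lost without any 1 of 6 libraries (AMB_W 2, 3 or 5, or HU_L 2, 3 or 5; highest adjusted p = 0.129).

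Trim63, the ligase MuRF1 that marks myosin for breakdown (chromosome 4, 134315120 to 134329629), had 161, 161, 153 and 121 CPM in AMB_W and 165, 349, 540 and 393 CPM in HU_L. HU_L 1 lay just above the highest AMB_W library, and the other HU_L libraries lay well above it. Trim63 rose 2.43-fold (edgeR adjusted p = 0.0013). Fbxo32, the ligase atrogin-1, had 472 to 582 CPM in AMB_W and 344, 736, 1030 and 717 CPM in HU_L. The groups overlapped, and its log2 fold change was 0.40 ± 0.23 SE (edgeR adjusted p = 0.414). Cblb, a ligase that targets insulin receptor substrate 1, rose 1.44-fold, from 47.6 ± 1.97 to 68.4 ± 2.89 CPM (edgeR adjusted p = 0.0378), a call lost without any 1 of the 8 libraries (highest adjusted p = 0.115).

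Downstream of the ligases little passed. Of 27 proteasome subunits 0 changed, with a median log2 fold change of 0.10, and of 28 autophagy and lysosome genes 1 rose. That gene was Depp1, a FoxO target that acts on autophagy, with 2.03 to 5.31 CPM in AMB_W and 20 to 27.7 CPM in HU_L (5.82-fold, edgeR adjusted p = 0.000423). Arrdc2 and Arrdc3, of the arrestin domain family, rose 5.12-fold and 3.5-fold; such proteins help to remove receptors from the cell surface. Txnip, of the same family, had a log2 fold change of -0.32 (edgeR adjusted p = 0.206).

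**Figure D2:**
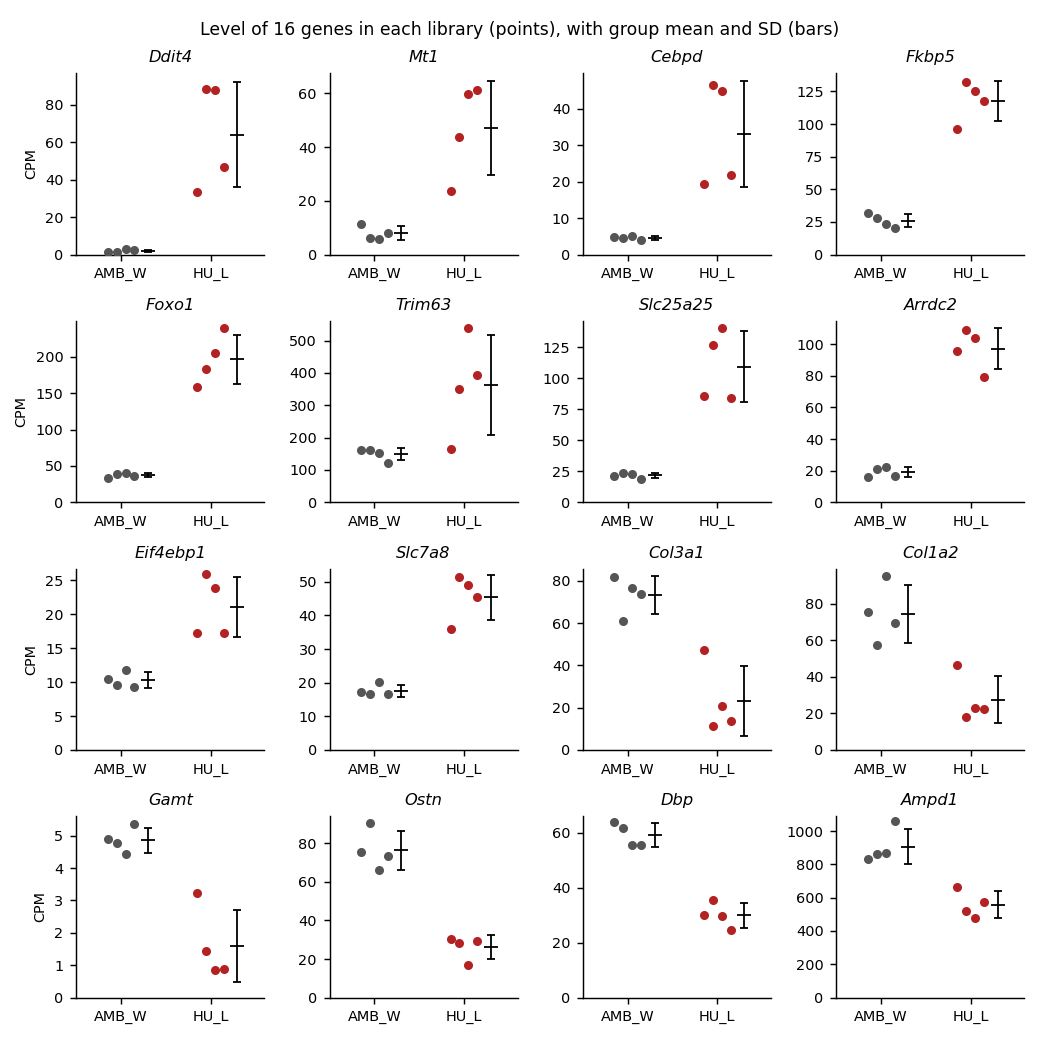
Level in CPM (vertical axis, from 0) of 16 genes in each of the 4 AMB_W libraries (grey points) and 4 HU_L libraries (red points), with the group mean and SD as a bar. No panel shows an overlap of the groups. All 16 genes were called, and most were picked by a rule that required no overlap, so its absence is no separate result. Trim63 comes closest, with 161 CPM in AMB_W against 165 CPM in HU_L 1.

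Genes that sense leucine and set mTORC1 activity gave 3 higher and 0 lower of 34 tested, with a median log2 fold change of 0.02. Besides Ddit4 these were Eif4ebp1, which represses cap-dependent translation until mTORC1 phosphorylates it, and Sesn1, a sestrin that restrains mTORC1. Eif4ebp1 had 10.5, 9.61, 11.8 and 9.23 CPM in AMB_W and 17.2, 25.9, 23.8 and 17.3 CPM in HU_L, a 2.05-fold rise (edgeR adjusted p = 0.00122). Sesn1 rose 1.74-fold, from 12.7 ± 1.45 to 22.1 ± 5.66 CPM. All 3 act on the inhibitory side of mTORC1 signalling by what is known of them. Mtor itself had 49.8 ± 3.43 and 55.3 ± 2.95 CPM (edgeR adjusted p = 0.618). These are RNA levels, and mTORC1 activity was not measured.

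Amino acid transporters gave 3 higher and 0 lower of 20. Slc7a8 (LAT2), which carries leucine and other large neutral amino acids, had 16.5 to 20.2 CPM in AMB_W and 36, 51.3, 48.9 and 45.4 CPM in HU_L, a 2.58-fold rise (edgeR adjusted p = 0.000231). Slc38a2, a glutamine transporter, rose 1.66-fold (edgeR adjusted p = 0.0138, and 0.0638 without HU_L 5), and Slc7a1, which carries arginine and lysine, rose 1.72-fold (edgeR adjusted p = 0.0295), a call lost without AMB_W 2, 3 or 5 or HU_L 2, 3 or 5 (highest adjusted p = 0.137). Without HU_L 5, Slc7a8 was the 1 transporter called. Slc7a5 (LAT1), the other large neutral carrier, had 0.986 ± 0.251 and 1.79 ± 0.694 CPM (edgeR adjusted p = 0.276). Of 25 genes that break down leucine, isoleucine and valine 0 changed; their median log2 fold change was -0.17, and 20 were below 0. Bcat2, which takes the first step, stood at 17 ± 1.62 and 12.7 ± 3.3 CPM (edgeR adjusted p = 0.234). Of 18 targets of ATF4, the factor of the amino acid shortage response, 1 rose, Cebpb (1.99-fold, edgeR adjusted p = 0.0241), a call lost without AMB_W 2, 4 or 5 or HU_L 2 or 3 (highest adjusted p = 0.0886). Of 30 translation factors and of 35 ribosomal proteins 0 changed, although 32 of the ribosomal proteins had a log2 fold change above 0 (median 0.18).

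Among immediate early genes, which respond fast to stimuli, 5 rose and 0 fell of 24 (median log2 fold change 0.58). Klf6 rose 2.16-fold, from 32.6 to 40.4 CPM in AMB_W to 58.5 to 91.6 CPM in HU_L (edgeR adjusted p = 7.02e-06), and Maff rose 3.94-fold from 0.862 ± 0.0902 CPM. Zfp36, which destabilizes cytokine RNA, rose 3.44-fold, Nr4a1 2.15-fold (edgeR adjusted p = 0.0113, and 0.0544 without AMB_W 5) and Jun 1.76-fold; Zfp36 and Jun have exons that overlap a gene on the opposite strand. Fosb was not among them, at 0.3 ± 0.239 CPM in AMB_W and 0.269 ± 0.225 CPM in HU_L (edgeR adjusted p = 0.95).

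Clock genes moved in both directions, 3 higher and 3 lower of 19. Without 1 library 2 to 4 rose and 1 to 4 fell. Nfil3, a repressor of D-box genes, rose 4.22-fold, from 3.98 to 7.71 CPM in AMB_W to 16.6 to 28.5 CPM in HU_L. Dbp, an activator that binds the same D-boxes, fell 1.98-fold, with 55.5 to 64.1 CPM in AMB_W and 24.5 to 35.6 CPM in HU_L (edgeR adjusted p = 0.00178). Per1 rose 2.55-fold and is also in the glucocorticoid list. Nr1d1, the repressor REV-ERB alpha, fell 1.65-fold (edgeR adjusted p = 0.0133, up to 0.0647 without AMB_W 2, HU_L 2 or HU_L 3), and Bhlhe40 fell 1.53-fold (edgeR adjusted p = 0.0486), a call lost without AMB_W 2, 3 or 5 or HU_L 2, 3 or 5 (highest adjusted p = 0.183). Exons of Dbp and Nr1d1 overlap Sphk2 and Thra on the opposite strand. The sources used here do not give the hour of tissue collection, and its part was not tested.

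Genes of fuel use changed singly. Ppp1r3c, which brings a phosphatase to glycogen and favours its synthesis, had 283, 260, 226 and 160 CPM in AMB_W and 680, 831, 841 and 820 CPM in HU_L. It rose 3.41-fold (edgeR adjusted p = 2.86e-06) and was the 1 gene called of 23 of glycolysis and glycogen. Ucp3, an uncoupling protein of muscle mitochondria, rose 2.38-fold (edgeR adjusted p = 0.0135, and 0.0741 without AMB_W 5), the 1 called of 27 genes of fatty acid use. Slc25a25, a calcium-dependent carrier of ATP-Mg, had 19 to 23.5 CPM in AMB_W and 85.8, 127, 140 and 84.2 CPM in HU_L, a 5.03-fold rise (edgeR adjusted p = 1.1e-05). It was the 1 higher of 25 genes of PGC-1, AMPK and mitochondrial control, whose median was -0.05. The 1 lower was Prkaa1, a catalytic subunit of the energy sensor AMPK, from 21.3 ± 1.73 to 16.9 ± 0.874 CPM (1.26-fold, edgeR adjusted p = 0.0339), a call lost without AMB_W 3, AMB_W 5 or HU_L 1, 2 or 3 (highest adjusted p = 0.117). Of 30 nuclear-encoded respiratory chain subunits and 13 mitochondrially encoded subunits 0 changed, with medians of -0.05 and 0.26; 5.8S ribosomal RNA and the mitochondrial share were highest in HU_L 5, and their part in the second median was not tested.

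Insulin and growth factor genes gave 3 higher and 2 lower of 22. Pik3r1, the regulatory subunit of PI 3-kinase, rose 2.14-fold, from 49.6 to 66.8 CPM in AMB_W to 109 to 140 CPM in HU_L (edgeR adjusted p = 1.7e-05). Tbc1d1, which holds glucose transporters inside the cell, rose 2.3-fold, and Igf1r 1.39-fold. Irs1, the docking protein of the insulin receptor, fell 1.52-fold, from 100 ± 6.27 to 65.9 ± 8.77 CPM (edgeR adjusted p = 0.00668). Trib2, a pseudokinase, fell 1.78-fold. In the myostatin and activin pathway Gdf11, a ligand close to myostatin, fell 2.39-fold, from 35.6 ± 7.8 to 15 ± 5.3 CPM (edgeR adjusted p = 0.0158). The receptor Acvr1b rose 1.77-fold and the receptor Acvr2b fell 1.62-fold. The call of Gdf11 was lost without AMB_W 2, HU_L 1 or HU_L 5, that of Acvr1b without AMB_W 2, AMB_W 5, HU_L 2 or HU_L 3, and that of Acvr2b without any of 6 libraries, AMB_W 3, 4 and 5 and HU_L 2, 3 and 5 (highest adjusted p = 0.0779, 0.0872 and 0.177). Mstn, myostatin itself, had 88.9 ± 17.5 and 88 ± 24.2 CPM. Il6ra, the receptor of interleukin 6, rose 3.06-fold, from 5.23 ± 0.699 to 16 ± 1.58 CPM (edgeR adjusted p = 8.46e-06), with exons of Gm42809 on the opposite strand.

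Of 25 fibrillar collagens and other matrix proteins tested 0 rose and 5 fell, with a median log2 fold change of -0.79. This count rested on single libraries: it was 0 without HU_L 3 or without HU_L 5, and 9 without HU_L 1. In bulk muscle, fewer cells of a type and less RNA per cell cannot be told apart. Col3a1, a chain of pliable fibrils (chromosome 1, 45311538 to 45349706), had 81.9, 61.1, 76.6 and 73.6 CPM in AMB_W and 47.1, 11.2, 20.7 and 13.9 CPM in HU_L. HU_L 1 lay between the other HU_L libraries and AMB_W. Col3a1 fell 3.13-fold (edgeR adjusted p = 0.0229), a call lost without AMB_W 2, HU_L 2, HU_L 3 or HU_L 5 (highest adjusted p = 0.107). Col1a2 fell 2.7-fold (edgeR adjusted p = 0.0213, up to 0.0945 without AMB_W 4 or HU_L 2, 3 or 5). Col6a1, Col6a2 and Col6a3, the chains of type VI collagen around fibres, fell 1.98-fold, 2.23-fold and 2.09-fold; the call of Col6a1 was lost without AMB_W 2, 4 or 5 or HU_L 2, 3 or 5, that of Col6a2 without HU_L 3 or 5 and that of Col6a3 without HU_L 2, 3 or 5 (highest adjusted p = 0.111, 0.0542 and 0.0758).

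Col1a1 had 42.7 to 68.9 CPM in AMB_W and 34, 7.76, 10.1 and 9.15 CPM in HU_L. The libraries did not overlap, and the gene did not pass (log2 fold change -1.74 ± 0.56 SE, edgeR adjusted p = 0.0711). Of 14 basement membrane genes 0 changed. Fibroblast-like cells make much of this matrix: the summed level of 13 markers of fibro-adipogenic progenitors was 567 to 837 CPM in AMB_W and 441 to 658 CPM in HU_L, with Tcf21 at 0 in every HU_L library and at most 0.052 CPM in AMB_W. Of the 12 tested 1 fell, Smoc2 (1.45-fold, edgeR adjusted p = 0.0281), a call lost without AMB_W 2, 4 or 5 or HU_L 2 or 5 (highest adjusted p = 0.138). For 9 tendon markers the sums were 127 to 288 CPM and 108 to 146 CPM. The part of these cells in the collagen values was not tested. Cd248, a surface protein of stromal cells, fell 2.68-fold (edgeR adjusted p = 0.00357), and Wnt5a, a secreted Wnt ligand, fell 2.46-fold. Ccn2 (CTGF), a matricellular protein often raised with fibrosis, went the other way, from 9.72 to 15.1 CPM in AMB_W to 23.7 to 42.3 CPM in HU_L (2.6-fold, edgeR adjusted p = 0.00303). It was the 1 higher of 26 matrix proteases, inhibitors and crosslinkers (median log2 fold change -0.24). The 1 lower was P4ha1, which hydroxylates collagen prolines, with 30.8 to 34.8 CPM in AMB_W and 20.5 to 24 CPM in HU_L (1.46-fold, edgeR adjusted p = 0.008).

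Few contractile genes passed the test. Of 15 fast-twitch fibre genes 1 fell, Ampd1, the AMP deaminase of muscle, from 906 ± 103 to 558 ± 79.6 CPM (1.62-fold, edgeR adjusted p = 0.00963, up to 0.0525 without AMB_W 5 or HU_L 3). Of 15 slow-twitch genes 0 changed, with a median log2 fold change of 0.49. Myh7, the slow myosin, had 24.7, 229, 421 and 344 CPM in AMB_W, so that AMB_W 2 stood far below the others, and 307 to 618 CPM in HU_L (log2 fold change 0.87 ± 1.10 SE, edgeR adjusted p = 0.778). Of 19 mechanosensors of the sarcomere 0 changed. At the neuromuscular junction 1 of 18 fell, Lrp4, the agrin receptor, by 1.44-fold (edgeR adjusted p = 0.0438), a call lost without any library but HU_L 1.

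Among other lowered genes was Ostn, which encodes the muscle hormone musclin: AMB_W held 75.4, 90.4, 66.4 and 73.5 CPM and HU_L 30.2, 28.3, 16.8 and 29.4 CPM. The fall was 2.92-fold (log2 fold change -1.55 ± 0.30 SE, edgeR adjusted p = 0.000853). Gamt, the last enzyme of creatine synthesis, fell 2.93-fold, with 4.43 to 5.36 CPM in AMB_W and 3.23, 1.44, 0.853 and 0.885 CPM in HU_L (edgeR adjusted p = 0.00629). Has3, a hyaluronan synthase, fell 2.93-fold and Aurka, a mitotic kinase, 2.42-fold. Opposite-strand genes also overlap exons of Ostn, Has3, Mt2, Slc25a25, Irs1, Ccn2, Cebpb, Wnt5a, Fbxo32, Bcat2, Cdkn1a, Myh7, Car14 and Bhlhe40, and their counts are uncertain to that extent. Aplnr, the apelin receptor of endothelium, fell 2.83-fold, G0s2, an inhibitor of fat breakdown, 2.76-fold, and Lhfpl2, Nhs and Pcdh12 2.78-fold, 2.45-fold and 2.44-fold; none of these 5 calls held without HU_L 2 or without HU_L 3, and each was lost without 3 or 4 other libraries as well (highest adjusted p = 0.177, 0.142, 0.134, 0.124 and 0.215). Higher were Doc2b, a calcium sensor of vesicle release (7.35-fold, edgeR adjusted p = 4.35e-05), and Glb1l2 (5.34-fold, edgeR adjusted p = 0.00223), each with an opposite-strand gene (Gm12339 and B3gat1) over its exons.

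**Figure D3:**
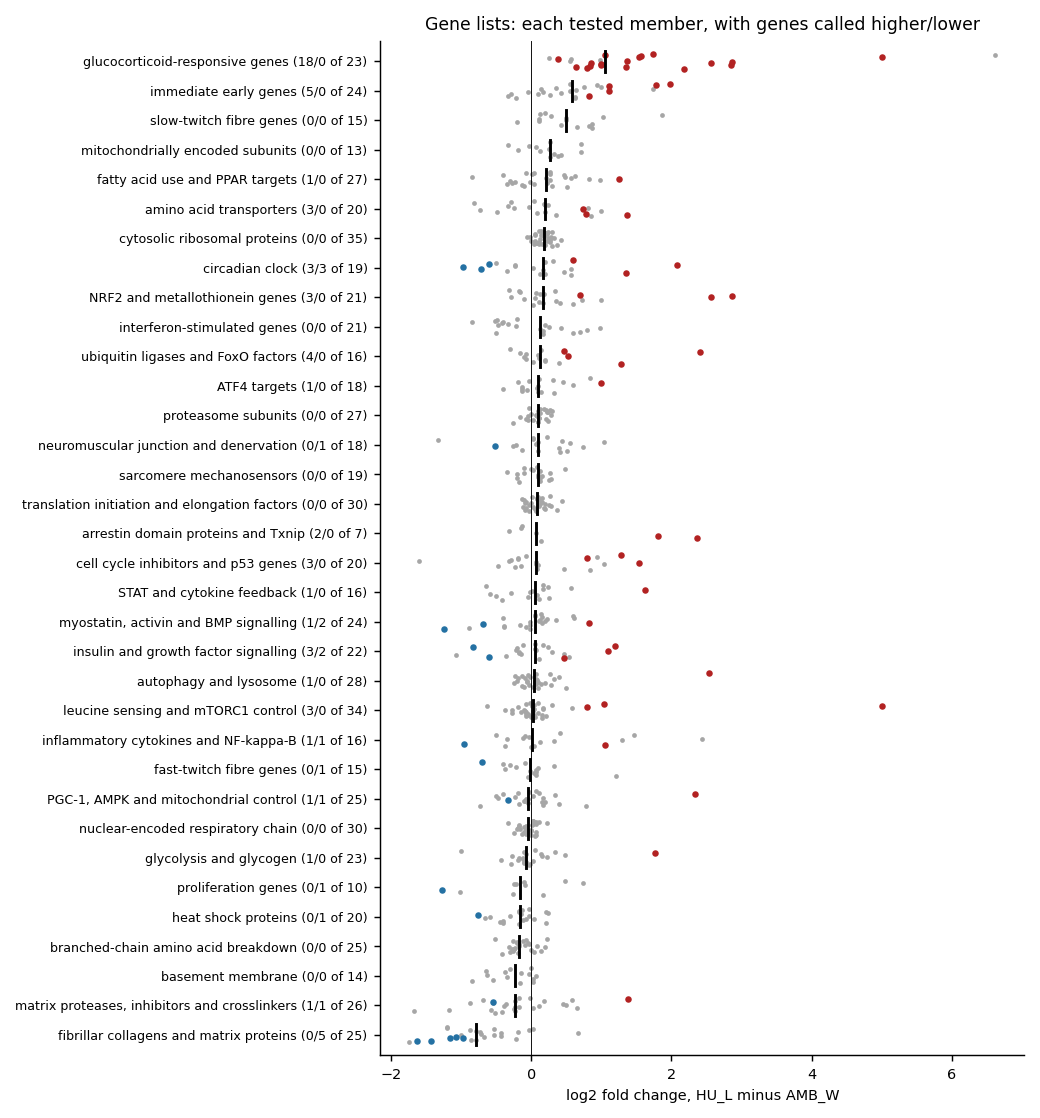
Log2 fold change, HU_L minus AMB_W (horizontal axis), of each tested member of 34 gene lists, cell type markers not drawn, with list medians as black bars. Labels give the genes called higher/lower of those tested; red and blue points are called, grey are not. Of the lists drawn the glucocorticoid list has the highest median, 1.05, and the fibrillar matrix list the lowest, -0.79; the far right point of the first, Tat, is at 0 in every AMB_W library and was not called.

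Several lists had no changed member or few. Of 21 interferon-stimulated genes 0 changed, and of 16 inflammatory genes Nfkbia, an inhibitor of NF-kappa-B, rose 2.08-fold and Tnfaip3, a brake on the same pathway, fell 1.95-fold. Of 20 heat shock proteins 1 fell, Hsph1, by 1.69-fold (edgeR adjusted p = 0.00147). Of 20 cell cycle inhibitors and p53 genes 3 rose, with Trp53inp1 2.44-fold higher (edgeR adjusted p = 1.23e-06), while Cdkn1a had 12.1 ± 2.99 and 21.6 ± 7.15 CPM (edgeR adjusted p = 0.145).

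Markers of other cells were compared as sums over each list. Satellite cells, the stem cells of muscle, had 84.9 to 96.9 CPM over 13 markers in AMB_W and 105 to 109 CPM in HU_L, yet 5 of the 13 had a log2 fold change above 0 and the median was -0.18. Sdc4, a heparan sulfate proteoglycan and the 1 marker called, rose 2.37-fold, from 13.4 ± 1.56 to 31.8 ± 8.21 CPM, whereas Pax7 (log2 fold change -0.69, edgeR adjusted p = 0.211) and Myod1 (-0.72, edgeR adjusted p = 0.199) did not pass. Endothelial markers summed to 323 to 399 CPM in AMB_W and 417 to 496 CPM in HU_L, with a median log2 fold change of 0.15; Flt1, a VEGF receptor, rose 1.65-fold (edgeR adjusted p = 0.000337) and Aplnr fell. Macrophage markers summed to 56.8 to 67.3 CPM and 35.1 to 79 CPM, and 0 of 15 changed. Lymphocyte markers summed to 5.71 to 10.1 CPM and 2.66 to 5.17 CPM, with Cd3g, Nkg7 and Cd8a at 0 in HU_L and at most 0.112 CPM in AMB_W, and neutrophil markers to 0.728 to 1.34 CPM and 0.625 to 1.08 CPM, with Ly6g, Ngp and Camp at 0 in both groups. Red blood cell markers summed to 53 to 66.7 CPM and 58.8 to 75 CPM, most of it Bpgm (57.1 and 53.2 CPM on average). Of these 8 markers 7 had a log2 fold change above 0 (median 1.07) and 0 passed. Hbb-bs, a beta globin, had 1.25 to 2.96 CPM in AMB_W and 6.37 to 10.5 CPM in HU_L without overlap (log2 fold change 2.05 ± 0.63 SE, edgeR adjusted p = 0.0544). Liver markers summed to 9.36 to 21.9 CPM and 4.46 to 103 CPM, the last in HU_L 5, and 9 of 10 had a log2 fold change above 0 (median 2.80) with 0 passed.

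Total RNA holds unspliced transcripts as well as messenger RNA, and the annotation has small gene models that lie wholly in introns of protein-coding genes on the same strand. Of 1030 such models tested 63 were called (6.12%). Of the 59 that lie in a host gene that was itself called, 24 were called (40.7%), and all 24 changed in the direction of their host. Both values come from the same libraries, so this is a description, and the models were picked out after their values were seen. Gm38034 lies in Foxo1 (chromosome 3, 52282241 to 52284309) and had 4.06, 3.96, 4.99 and 4.38 CPM in AMB_W and 28.8, 34.4, 35 and 26 CPM in HU_L, a 7.14-fold rise (edgeR adjusted p = 1.59e-09). AC154912.3 lies in Fkbp5 (chromosome 17, 28457484 to 28461095) and rose 21.2-fold, from 1.8 ± 0.916 to 38 ± 9.38 CPM (edgeR adjusted p = 1.3e-07). AC154912.5, in Fkbp5 as well, rose 22.2-fold from 0.421 ± 0.213 CPM. In 21 of the 24 the model changed more than its host. These 24 were picked by being called, which favours large changes, so that count cannot show that introns change more than their genes. In Ppargc1a (PGC-1 alpha), whose own log2 fold change was 0.78 (edgeR adjusted p = 0.138), 3 of 3 such models rose, with Gm42614 6.12-fold higher (edgeR adjusted p = 7.44e-06); its level was 26.6 CPM in HU_L 5, 11.1 in HU_L 1, 5.46 in HU_L 3 and 5.03 in HU_L 2, against 1.4 to 2.25 CPM in AMB_W. Ppargc1a itself had 243 CPM in HU_L 5 and 95.2 to 124 CPM in the other HU_L libraries.

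**Figure D4:**
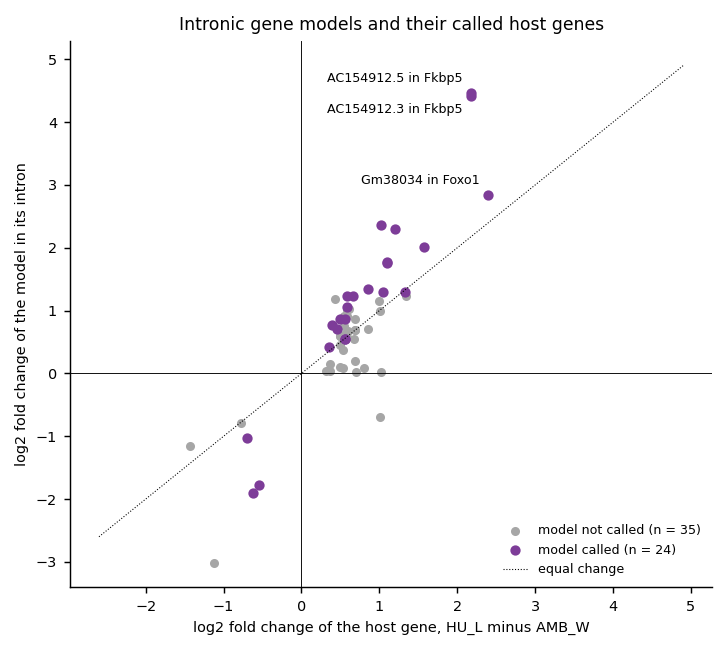
Log2 fold change, HU_L minus AMB_W, of 59 gene models in introns (vertical axis) against that of their called host genes (horizontal axis). Purple points are the 24 called models and grey points the other 35; the dotted line marks equal change, and the models in Fkbp5 lie above it at 4.41 and 4.47 against 2.18 for the host.

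HU_L was also tested directly against the other unloaded groups. From HU_W it differed by leucine, from HU_M by both agents and from HU_ML by metformin, as HU_ML mice had leucine too. Only the comparison with HU_W therefore bears on leucine alone. Against HU_W 1 of 16668 genes was called (0.006%), and 499 had an unadjusted p under 0.05; that gene, Fosb, was lower in HU_L (log2 fold change -4.54 ± 0.79 SE, edgeR adjusted p = 0.0142). The call of Fosb was lost without HU_L 1, HU_L 2, HU_L 3 or HU_W 1, each of which left 0 genes called. Against HU_M 1 gene was called, the Ppargc1a intron model Gm42614 (2.03 ± 0.36 SE, edgeR adjusted p = 0.0182), and 981 had an unadjusted p under 0.05. Without HU_L 5, in which Gm42614 was highest, or without HU_M 3, 0 genes were called against HU_M, and without HU_M 1, 2 or 4 the counts were 17, 16 and 18. DESeq2 called 6 genes against HU_W and 42 against HU_M. The median SE of a log2 difference was 0.231.

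Against HU_ML 16 genes were called (0.096%), 14 higher (0.084%) and 2 lower (0.012%) in HU_L, and 1632 had an unadjusted p under 0.05. The count ran from 3 without HU_ML 6 to 30 without HU_ML 4. Fam117b, higher than in AMB_W in both groups, had 30.9 ± 2.14 CPM in HU_L, 18.5 ± 1.77 CPM in HU_ML and 12.3 ± 1.26 CPM in AMB_W, without overlap between any pair of these groups (HU_L minus HU_ML 0.74 ± 0.14 SE, edgeR adjusted p = 0.00723); its exons overlap Ica1l on the opposite strand. Nfe2l2 (NRF2), the factor of the oxidative stress response, had 64.6 ± 14.5 CPM in HU_L and 42.6 ± 2.76 CPM in HU_ML, against 39.9 ± 2.92 CPM in AMB_W (HU_L minus HU_ML 0.60 ± 0.13 SE, edgeR adjusted p = 0.0298). The intron models in Foxo1 (Gm38034) and Fkbp5 (AC154912.3) were 2.59-fold and 4.78-fold higher in HU_L than in HU_ML. Their hosts did not pass, with log2 differences of 0.74 for Foxo1 (edgeR adjusted p = 0.138) and 0.48 for Fkbp5 (0.535). The 5.8S ribosomal RNA gene n-R5-8s1 was itself among the 16, at 14.3 to 32.8 CPM in HU_L against 2.07 to 8.82 CPM in HU_ML. With it as a covariate 0 genes were called. Its own loss was fixed in advance, and its levels did not overlap between these groups. That fit therefore cannot part its level from the group.

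The comparisons of HU_L, HU_W, HU_M and HU_ML with AMB_W share the AMB_W libraries, so their values are set side by side without a measure of likeness. They gave 624 (3.74%), 464 (2.78%), 603 (3.62%) and 345 (2.07%) called genes, in that order. Ddit4 averaged 64.2 CPM in HU_L, 62.6 in HU_W, 42.5 in HU_M and 21.7 in HU_ML, and the direct difference between HU_L and HU_ML did not pass (1.55 ± 0.42 SE, edgeR adjusted p = 0.138). Trim63 averaged 362, 273, 419 and 259 CPM, Slc7a8 45.4, 37.3, 38.3 and 32.5 CPM, and Col3a1 23.3, 23.4, 15.8 and 32.8 CPM in the same order. Ostn averaged 26.2 CPM in HU_L, 42.9 in HU_W, 39.8 in HU_M and 25.2 in HU_ML. The differences between HU_L and HU_W did not pass for Trim63, Slc7a8, Col3a1 and Ostn (edgeR adjusted p = 1.0 for each), at 0.40 ± 0.25, 0.28 ± 0.24, 0.01 ± 0.43 and -0.71 ± 0.30 SE on the log2 scale. After 7 d of reloading on leucine (RL7_L) Ddit4 averaged 2.7 CPM, Foxo1 26.5 CPM, Trim63 108 CPM and Col3a1 134 CPM.

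**Figure D5:**
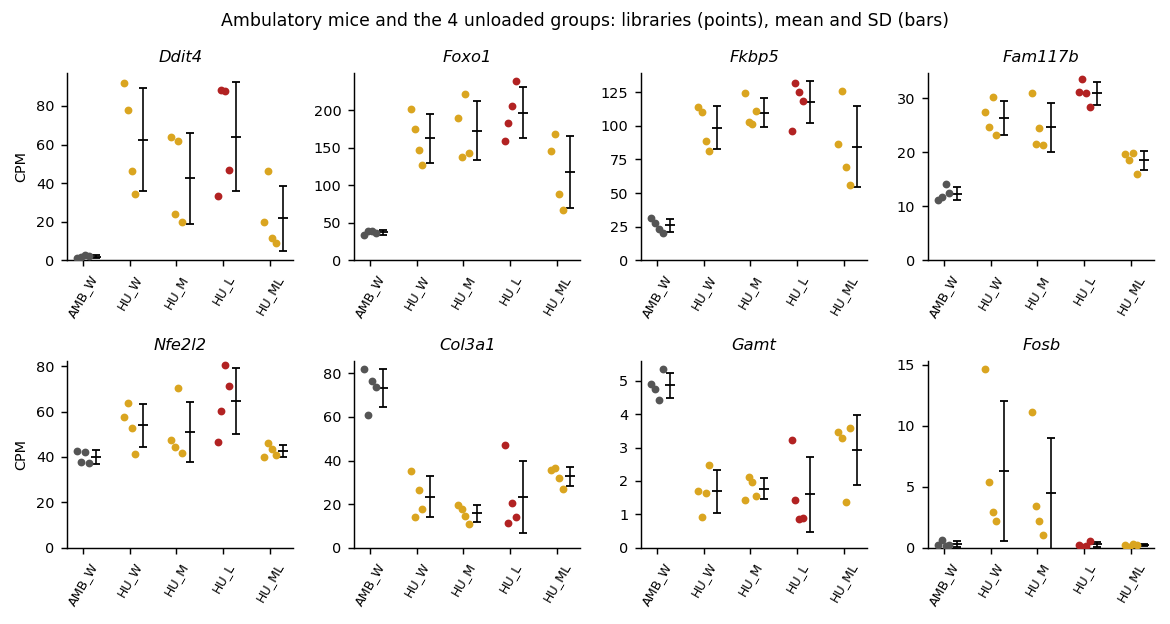
Level in CPM (vertical axis) of 8 genes in ambulatory mice (AMB_W, grey), the other unloaded groups (gold) and the unloaded leucine group (HU_L, red), with 1 point per library and the mean and SD as bars, cut at 0 where an SD exceeds its mean. Fosb spans 2.15 to 14.6 CPM in HU_W and 0.0719 to 0.59 CPM in HU_L, and Fam117b in HU_L (28.3 to 33.5 CPM) lies above HU_ML (16 to 19.9 CPM).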

How the data were processed

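Gene counts for 52 libraries of gastrocnemius total RNA were used as deposited: the authors' table holds raw counts for 55487 genes, and the submitters' processing notes name GRCm38, STAR 2.7.3a, featureCounts 1.6.3 and DESeq2 1.30.0, without role. The annotation release and the strand setting of the counting are not given in the sources used here. Groups came from the sample titles. Symbols came from GENCODE vM21 (55227 identifiers matched).

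Counts were fitted with edgeR 4.0.16 (R 4.3.3; robust quasi-likelihood test, TMM scaling, filterByExpr with a minimum count of 10) in 1 model of 13 group means, which left 16668 genes and 39 residual degrees of freedom. Adjusted p-values are Benjamini-Hochberg values over all genes tested, and genes under 0.05 were called. CPM used TMM library sizes. Alternatives were DESeq2 1.42.0, limma 3.58.1 (voom), other scaling, no filter, fewer libraries, a replicate block and a 5.8S ribosomal RNA covariate. The model was tested on simulated data. Of genes changed 1.5-fold 42.1% were recovered, of those changed 2-fold 83.6% and of those changed 4-fold 100%. Of the 161 genes called there, 6 had not been changed. The changed genes had a log2 CPM that averaged 1 or more, and no simulated library was deviant. Recovery of genes at lower levels was not tested.

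Members and lists were chosen with earlier results of these data known. Named are the 12 highest and 12 lowest called protein-coding genes without overlap between groups whose log2 CPM averaged 1 or more, up to 2 called members of each list in each direction by smallest p, a fixed set of genes of unloading and leucine biology, and the leading genes called between unloaded groups. Some named genes were left out for room. Other names in the text were chosen after their values were seen. Libraries of a group differed by more than sampling noise (chi-square per degree of freedom at least 7.72).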

Additional observations from a re-analysis of the deposited data

Results flagged for a closer look

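Of 160 groups of 4 libraries examined for the named genes, 12 held a library far from the other 3 by Dixon's test, which by chance marks about 1 group in 20. HU_L 1 was that library 5 times: it was high for Col1a2 (46.4 CPM, others 18 to 22.7), Col6a2 (29.8, others 12.8 to 13.5), Col6a3 (43.4, others 16.7 to 20.9) and Col1a1 (34, others 7.76 to 10.1), and low for Ppp1r3c (680 CPM, others 820 to 841). HU_L 3 was low for Ostn (16.8 CPM, others 28.3 to 30.2). In AMB_W, library 2 was low for Maff (0.728 CPM, others 0.897 to 0.923) and high for Nr1d1 (196, others 155 to 160), library 3 was high for Cebpb (23.5, others 19.1 to 19.5), library 4 was high for Aplnr (2.97, others 1.45 to 1.61), and library 5 was high for Ampd1 (1060, others 832 to 867) and low for Gm48958 (10.1, others 12.6 to 12.9).

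Levels differed between HU_L and another unloaded group, by a direct edgeR test, in 18 cases. No ambulatory group drank leucine or metformin, so a difference in the response to unloading cannot be told from an effect of the drink alone. Fosb was lower than in HU_W (log2 difference -4.54), and Gm42614 was higher than in HU_M (2.03). Higher than in HU_ML, on the log2 scale, were Gm42614 by 2.29, AC154912.3 by 2.26, n-R5-8s1 by 2.05, Gm38034 by 1.38, St8sia6 by 1.09, AC096777.1 by 1.0 and Gm47644 by 1.0. Smaller differences of that kind were 0.74 for Fam117b, 0.72 for Lrrc8c, 0.60 for Nfe2l2, 0.59 for Il15ra, 0.58 for Adgrf5, 0.58 for Irf2bp2 and 0.49 for Pan3. Lower than in HU_ML were Gm48958 (-0.93) and Mindy1 (-0.62). Levels of 5.8S ribosomal RNA moved with these differences, and their part was not tested. In the covariate fit 0 genes were called, but that fit cannot part these levels from the group.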

How the results depend on the processing

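Between HU_L and AMB_W, 624 genes were called, 1559 with limma voom, 1053 with only these 8 libraries in the fit and 392 to 639 without each library in turn. Counts stayed within 1.5 times under the other settings: 631 with RLE size factors, 761 with DESeq2, 419 without a filter, 504 with the 5.8S covariate, 418 without libraries above 16 CPM of Alb and 862 without RL14_ML 1 and 6. No gene called in both changed sign under any of these settings. Of the 80 named genes, 3 to 17 lost their call when 1 library was left out. The 80 include genes that were not called with all libraries, such as Fbxo32, Mstn and Fosb, and could not lose a call.

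Between HU_L and HU_W the count of 1 became 0 with the 5.8S covariate, voom, no filter or without libraries high in Alb, 3 with only these groups and 6 with DESeq2, and was 0 to 1 without each library. Between HU_L and HU_M the count of 1 became 0 with the covariate, voom, no filter, only these groups or the replicate block, 11 without RL14_ML 1 and 6 and 42 with DESeq2, and was 0 to 18 without each library. Between HU_L and HU_ML the count of 16 became 0 with the covariate, 1 without libraries high in Alb, 3 with no filter or only these groups, 67 without RL14_ML 1 and 6, 74 with DESeq2 and 125 with voom, and was 3 to 30 without each library. Leaving out libraries also removes samples from the fit; the cause of the other changes was not tested.

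Same-numbered libraries of HU_L and AMB_W did not deviate together (r = -0.001, -0.038 and 0.037 for numbers 2, 3 and 5), so the numbers were not taken as pairs. With the replicate block 704 genes were called, 453 higher and 251 lower.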

Other observations

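The genes here were picked out after their values were seen. Several genes of muscle structure and myogenic control were lower in HU_L than in AMB_W. They were picked from genes that fell and do not stand for such genes as a whole. Of 19 mechanosensors of the sarcomere 0 changed, and 12 had a log2 fold change above 0 (median 0.09). Ky, whose loss causes kyphoscoliosis with muscle weakness in mice, fell 2.15-fold, from 234 ± 25.9 to 109 ± 30.4 CPM (n = 4, edgeR adjusted p = 0.000504). Fgf6, a growth factor made by muscle, fell 2.13-fold, from 9.56 ± 2.34 to 4.45 ± 1.11 CPM (edgeR adjusted p = 0.00704). Sspn, a member of the dystrophin complex, fell 1.46-fold (edgeR adjusted p = 5.92e-05), and Capn3, a protease bound to titin, fell 1.37-fold (edgeR adjusted p = 0.00329). These 4 calls held without each of the 8 libraries. Six4, Mamstr, Sgcd, Smyd1 and Kbtbd13 fell 1.43-fold, 1.80-fold, 1.33-fold, 1.37-fold and 1.72-fold; all 5 calls were lost without HU_L 3, and each without at least 1 further library.

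Some genes known from endothelium were higher. S1pr1, a receptor for sphingosine 1-phosphate, rose 1.89-fold, from 20.7 ± 3.52 to 39 ± 2.98 CPM (edgeR adjusted p = 1.74e-05). Adgrf5 rose 1.63-fold, from 127 ± 7.62 to 207 ± 13.8 CPM (edgeR adjusted p = 4.86e-05), and Sox17, a transcription factor of arterial endothelium, rose 1.77-fold (edgeR adjusted p = 0.00197). Other endothelial genes fell: Aplnr 2.83-fold and Pcdh12 2.44-fold. Of the 12 endothelial markers of the list 1 rose and 1 fell, with a median log2 fold change of 0.15. They summed to 417 to 496 CPM in HU_L and 323 to 399 CPM in AMB_W, and the part of endothelial cell number was not tested. Flt1 alone, the marker that rose, held 97.4 to 119 CPM of the sum in HU_L and 63.4 to 69 CPM in AMB_W. Bcl2l1, which restrains apoptosis, rose 2.52-fold (edgeR adjusted p = 1.7e-05), Rbm3, a cold-induced RNA-binding protein, 2.25-fold (edgeR adjusted p = 0.000128), and Hif3a, which dampens the hypoxia response, 3.17-fold (edgeR adjusted p = 0.00423). Exons of Sspn, Sox17 and Rbm3 overlap a gene on the opposite strand.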
